A study of Mus musculus with 10 samples.

Results

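Goblet cells of the colon make the mucus that lies between bacteria and the epithelium, and 10 genes of this system were followed across the 10 colon libraries of the study. They were taken by name: the mucin Muc2, 5 further secreted proteins (Clca1, Fcgbp, Zg16, Tff3 and Spink4), the folding factor Agr2, the transcription factors Atoh1 and Spdef, and the membrane mucin Muc13. All 10 were among the 18398 genes of the deposited table, and all 10 were among the 12345 genes with a mean FPKM (a level scaled for gene length and for the library's total) of at least 1, which were tested. The samples were colon tissue of wild-type (WT) mice, 5 labelled with a pro-inflammatory diet (PI-1 to PI-5) and 5 with a normal diet (CN-1 to CN-5). The labels give no strain, sex, age, diet composition or feeding time, and do not say whether colitis, which the series' title names, was induced. They also do not say that the samples of a diet came from separate animals, so a p-value reflects variation among these libraries, part of which may be technical.

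In a goblet cell, Muc2 is folded and linked in the endoplasmic reticulum, heavily glycosylated in the Golgi, packed into granules and released, where it swells into a net-like gel. Atoh1 sets the secretory fate of an epithelial precursor that escapes Notch signalling, and Spdef drives the later maturation of goblet cells. Colonic mucus is known to differ along the length of the mouse colon, and Hoxb13 is a homeobox gene of the distal hindgut. Dbp is an output gene of the circadian clock. Both were therefore read in each library beside the mucus genes.

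Each library held 15652783 to 18341956 reads on genes. The least abundant member, Spdef, rested on 500 to 2450 reads per library, and Muc2 on 70727 to 454823, so counting error was small beside the differences between libraries. Hoxb13 was at 312, 0.417, 292, 341 and 20.9 FPKM in PI-1 to PI-5, against 211, 262, 218, 333 and 322 FPKM in CN-1 to CN-5. PI-2 and PI-5 therefore stood apart from the other 8 libraries, and Hoxb13 rested on 10 reads in PI-2. Dbp was at 54.3, 12.4, 33.5, 39.0 and 20.2 FPKM in PI-1 to PI-5, against 1.79, 3.29, 6.69, 35.4 and 42.6 FPKM in CN-1 to CN-5, with CN-1, CN-2 and CN-3 lowest. CN-4 carried more RNA of Paneth cell genes, a cell type of the small intestine: the 7 genes of that list summed to 246 FPKM there, against 8.36 to 34.3 FPKM in the other 9 libraries. General epithelial genes were high in every library, with Epcam at 663 to 805 FPKM on the pro-inflammatory diet and 691 to 856 FPKM on the normal diet.

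The promoters of 4 members are shown because their transcripts differ in how they varied: Muc2, Spdef and Agr2 were high in the same libraries, while Fcgbp stayed in a narrow range. RefSeq held promoter entries for 6 of the 10 members. Each line gives the 250 bases before the annotated start on the gene's strand, 5′ to 3′, from RefSeq on GRCm38.p6 (the mm10 assembly), with matches in capitals. The Muc2 window is chr7:141690090-141690339 (plus strand), that of Spdef chr17:27728952-27729201 (minus strand), that of Agr2 chr12:35992675-35992924 (plus strand) and that of Fcgbp chr7:28070986-28071235 (plus strand).
Muc2: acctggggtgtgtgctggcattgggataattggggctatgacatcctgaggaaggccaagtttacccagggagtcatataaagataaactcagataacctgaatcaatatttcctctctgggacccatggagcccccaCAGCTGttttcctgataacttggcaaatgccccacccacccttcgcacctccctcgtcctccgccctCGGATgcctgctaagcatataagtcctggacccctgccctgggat
Spdef: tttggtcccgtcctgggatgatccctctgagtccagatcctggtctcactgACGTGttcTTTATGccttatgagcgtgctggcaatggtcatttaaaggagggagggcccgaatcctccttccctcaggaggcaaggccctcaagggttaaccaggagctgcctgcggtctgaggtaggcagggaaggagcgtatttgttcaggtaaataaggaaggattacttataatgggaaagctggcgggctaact
Agr2: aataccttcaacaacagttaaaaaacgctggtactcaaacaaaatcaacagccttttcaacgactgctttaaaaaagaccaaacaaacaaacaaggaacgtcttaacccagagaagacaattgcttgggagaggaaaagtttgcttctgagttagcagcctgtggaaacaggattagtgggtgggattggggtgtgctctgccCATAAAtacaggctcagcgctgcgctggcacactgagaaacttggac
Fcgbp: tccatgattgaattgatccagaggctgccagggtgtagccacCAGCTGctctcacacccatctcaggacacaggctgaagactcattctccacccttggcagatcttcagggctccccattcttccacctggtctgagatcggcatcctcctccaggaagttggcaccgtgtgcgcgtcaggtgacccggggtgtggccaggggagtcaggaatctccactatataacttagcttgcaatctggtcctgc
Capitals mark matches, on either strand, to CAGCTG (an E-box of the kind bound by Atoh1 and other basic helix-loop-helix factors), CGGAT (the core preferred by Spdef), CATAAA (a Cdx-type site), CAATAAA (a Hoxb13-type site) or ACGTG (the core of elements bound by stress factors of the endoplasmic reticulum). The Muc2 window held 1 E-box, 112 bases before the start, and 1 CGGAT, 45 bases before it. Spdef held 1 CATAAA and 1 ACGTG, Agr2 held 1 CATAAA 47 bases before its start, and Fcgbp held 1 E-box. No 2 of these matches overlapped, and CAATAAA was in none of the 4 windows. Among the members not shown, a Muc13 window held CATAAA 180 bases before its start, and the Atoh1 window held no match. Of 32851 such windows in the RefSeq table, 13.0% held the E-box, 13.4% CGGAT, 10.8% CATAAA, 4.20% CAATAAA and 16.6% ACGTG, so each match is a common one. A match is a description of the letters and was not tested for binding.

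The summed FPKM of the 10 genes varied less than the genes' proportions. They summed to 10514, 10408, 10511, 10117 and 11717 FPKM in PI-1 to PI-5, against 11615.5, 10857, 11522.5, 10025 and 9487 FPKM in CN-1 to CN-5. That is 2.54% to 2.997% of all FPKM on the pro-inflammatory diet and 2.49% to 3.06% on the normal diet, with full overlap. As a share of reads, in which long genes such as Muc2 weigh more, the 10 genes took 2.19%, 3.87%, 2.21%, 2.08% and 3.82% in PI-1 to PI-5, against 3.08%, 2.61%, 3.28%, 2.18% and 2.33% in CN-1 to CN-5. On that scale PI-2 and PI-5 were above every other library. The proportions among the genes varied more than either sum. Muc2 per Fcgbp, both secreted and found together in the gel, ran from 0.498 in PI-4 to 3.93 in PI-2 as a ratio of FPKM. Muc2 per Tff3 ran from 0.176 to 2.04 between the same libraries. By contrast, Clca1 per Fcgbp lay between 1.90 and 2.79 in 9 libraries, with PI-2 apart at 1.004.

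**Figure D1:**
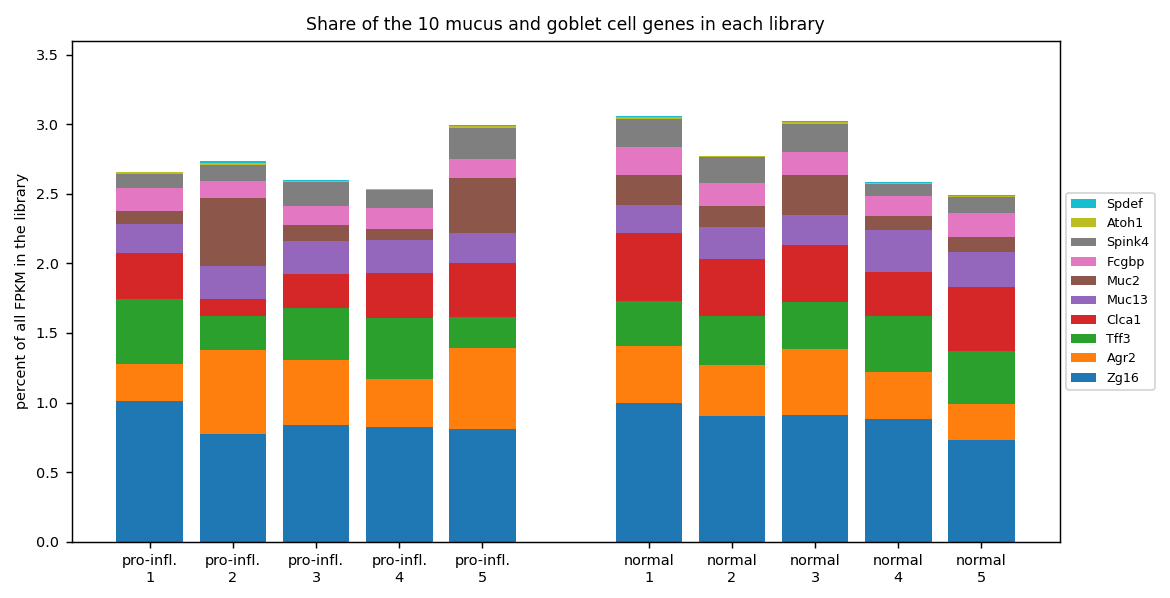
Stacked bars give each gene's FPKM as a percent of all FPKM in its library (y axis), for the 5 pro-inflammatory diet and the 5 normal diet libraries (x axis); there are no error bars, since each bar is 1 library. The bar heights stay between 2.49% and 3.06%, while the Muc2 segment is widest in PI-2 and PI-5.

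Muc2, the gel-forming mucin of the colon (chromosome 7, 141690340 to 141754693, plus strand, GRCm38), varied most among the members. It was at 373, 1867, 489, 307 and 1536 FPKM in PI-1 to PI-5, against 813, 590, 1084, 381 and 415 FPKM in CN-1 to CN-5. PI-2 and PI-5 were above every other library, and the remaining 3 pro-inflammatory diet libraries lay with CN-4 and CN-5, below CN-1, CN-2 and CN-3. Muc2 averaged 914 ± 731 FPKM on the pro-inflammatory diet and 657 ± 294 FPKM on the normal diet (SD, n = 5 each). Its log2 fold change was 0.19 (95% interval -0.99 to 1.38; limma adjusted p = 0.862), an interval that spans large changes either way. Because the gene model is long, Muc2 alone took 2.60% of all reads on genes in PI-2 (95% Wilson interval 2.59% to 2.61%) and 0.428% in PI-4 (0.425% to 0.431%), where the intervals cover counting error only.

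The other structural proteins of the gel were steadier. Fcgbp, a large protein with repeated von Willebrand domains that is stored with Muc2 (chromosome 7, 28071236 to 28120862), was at 646, 475, 529, 617 and 542 FPKM in PI-1 to PI-5, against 768, 640, 644, 564 and 653 FPKM in CN-1 to CN-5. Its highest value, in CN-1, was 1.62 times its lowest, in PI-2. Zg16, a small lectin that binds Gram-positive bacteria (chromosome 7, 127050156 to 127087328), was the most abundant member and ranked 4th of 18398 genes by mean FPKM. Zg16 was at 4004, 2946, 3391, 3285 and 3164 FPKM in PI-1 to PI-5, against 3794, 3531, 3471, 3426 and 2787 FPKM in CN-1 to CN-5, and both diets covered nearly the same range. The log2 fold change of Zg16 was -0.02 (95% interval -0.26 to 0.22).

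Clca1, a metalloprotease that goblet cells secrete and that processes Muc2 (chromosome 3, 145003817 to 145032776), had the largest log2 fold change between diets of the 10. It was at 1312, 477, 1002, 1312 and 1512 FPKM in PI-1 to PI-5, against 1851, 1618, 1557, 1221 and 1732 FPKM in CN-1 to CN-5. PI-2 was far below the rest, PI-3 was also below every normal diet library, and PI-1, PI-4 and PI-5 lay inside the normal diet range. Clca1 averaged 1123 ± 404 FPKM on the pro-inflammatory diet and 1596 ± 238 FPKM on the normal diet (SD, n = 5 each; log2 fold change -0.60, 95% interval -1.22 to 0.03, limma adjusted p = 0.301). Without PI-2 the log2 fold change of Clca1 was -0.31 (adjusted p = 0.344). Fcgbp had a log2 fold change of -0.22 with the same adjusted p of 0.301.

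Tff3 and Spink4 encode small secreted proteins of goblet cells. Tff3, a trefoil peptide that aids epithelial repair (chromosome 17, 31125306 to 31129646), was at 1866, 917, 1515, 1748 and 888 FPKM in PI-1 to PI-5, against 1219, 1376, 1300, 1556 and 1469 FPKM in CN-1 to CN-5. PI-2 and PI-5 were the lowest of all libraries for Tff3 and PI-1 and PI-4 the highest, the reverse of Muc2. The means were thus close, at 1387 ± 460 FPKM on the pro-inflammatory diet and 1384 ± 133 FPKM on the normal diet (SD, n = 5 each), and the pro-inflammatory diet libraries lay on both sides of the normal diet range. Spink4, a Kazal-type protease inhibitor homologue (chromosome 4, 40920052 to 40931395), was at 407, 437, 712, 498 and 884 FPKM in PI-1 to PI-5, against 778, 714, 758, 347 and 458 FPKM in CN-1 to CN-5. Its values fell into a lower set (PI-1, PI-2, PI-4, CN-4 and CN-5) and a higher one, and each diet was in both.

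**Figure D2:**
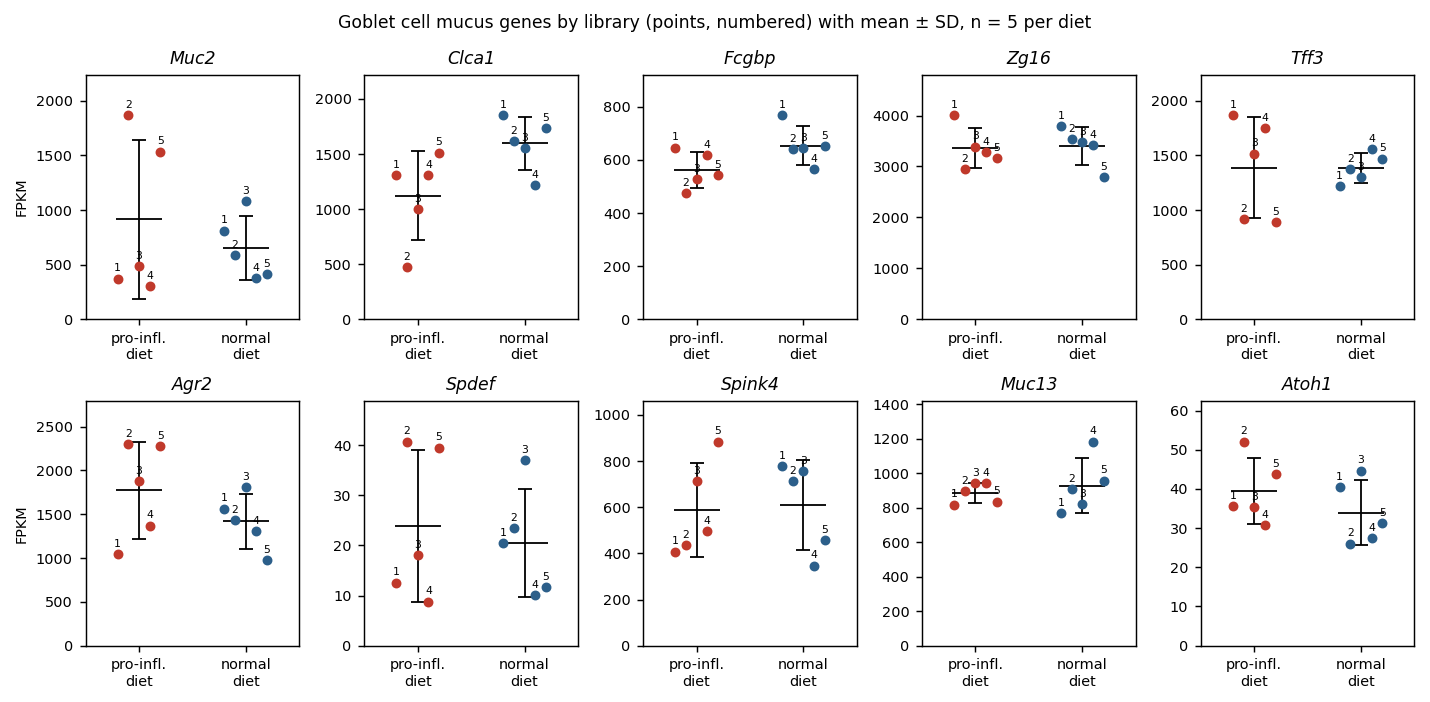
Each panel plots 1 gene's FPKM (y axis, from 0) in the pro-inflammatory diet (left) and normal diet (right) libraries; points are libraries with their numbers, and bars give the mean and SD (n = 5 each). The diets overlap in all 10 panels, with PI-2 and PI-5 high for Muc2, Spdef and Agr2 and low for Tff3.

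Agr2, a disulfide isomerase of the endoplasmic reticulum needed to make Muc2 in mouse intestine (chromosome 12, 35992907 to 36004087), was at 1042, 2299, 1878, 1371 and 2274 FPKM in PI-1 to PI-5. On the normal diet Agr2 was at 1563, 1433, 1807, 1309 and 974 FPKM in CN-1 to CN-5. PI-2, PI-5 and PI-3 were above every normal diet library, while PI-1 was below 4 of them. Agr2 varied less than Muc2: it had 1.23 FPKM per FPKM of Muc2 in PI-2 and 4.47 in PI-4. Muc13, a membrane mucin of the epithelial surface that enterocytes also make (chromosome 16, 33794037 to 33819934), was at 817, 897, 940, 941 and 835 FPKM in PI-1 to PI-5, against 770, 906, 820, 1183 and 957 FPKM in CN-1 to CN-5. Its highest value was in CN-4, and the pro-inflammatory diet libraries lay inside the normal diet range.

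The transcription factors followed Muc2 to different degrees. Spdef, an Ets factor (chromosome 17, 27714352 to 27728955), was at 12.6, 40.7, 18.1, 8.77 and 39.5 FPKM in PI-1 to PI-5, against 20.5, 23.4, 37.0, 10.1 and 11.7 FPKM in CN-1 to CN-5. PI-2, PI-5 and CN-3 were highest for Spdef, as they were for Muc2, and PI-4 was lowest for both. Atoh1, a basic helix-loop-helix factor (chromosome 6, 64729125 to 64731245), varied less, at 35.6, 52.1, 35.4, 30.9 and 43.8 FPKM in PI-1 to PI-5 against 40.4, 26.0, 44.7, 27.4 and 31.3 FPKM in CN-1 to CN-5. Spdef per Atoh1 ran from 0.284 in PI-4 to 0.902 in PI-5. These are levels in whole tissue, where fewer cells of a type and less RNA per cell cannot be told apart.

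Between the diets, none of the 10 genes passed. The limma count was 0 of 10 at an adjusted p under 0.05, 0 of 10 at an unadjusted p under 0.05 (of all tested genes, 8.16% were higher and 9.25% lower at that level), and 0 of 10 with limma voom on whole reads. Over all 12345 tested genes, 0 passed as well, which is 0% of those tested, with 2149 at an unadjusted p under 0.05 and 0 with voom. The log2 fold change was above 0 for 4 members (Muc2, Agr2, Atoh1 and Spdef) and below 0 for 6, with a median of -0.04 against -0.01 over all tested genes. The values of the diets did not separate for any member, 0 of 10, where the groups did not overlap for 3.83% of all tested genes (1.77% higher, 2.07% lower). A p that misses the threshold does not show that the diets are alike: the 95% interval was -0.24 to 0.82 for Agr2 and -0.91 to 1.15 for Spdef. Without PI-2 and PI-5 together, the log2 fold change turned to -0.67 for Muc2, -0.52 for Spdef and 0.30 for Tff3, and was 0.00 for Agr2, with adjusted p values of 0.360, 0.531, 0.253 and 0.998.

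**Figure D3:**
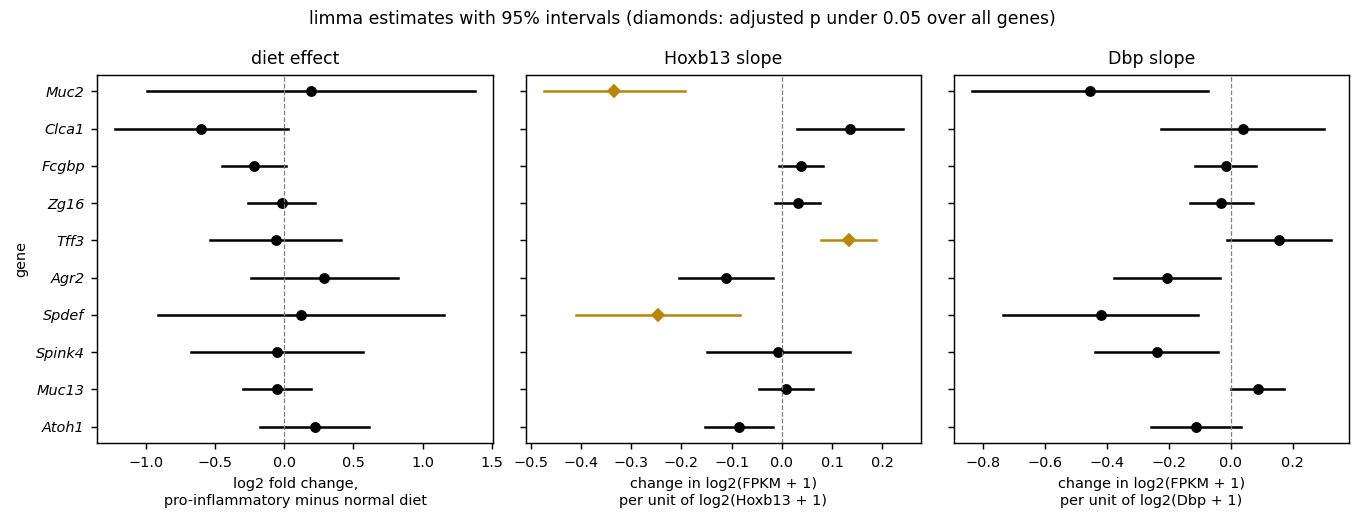
Points are limma estimates for the 10 genes with 95% intervals (lines): the log2 fold change between diets (left), and the change in log2(FPKM + 1) per unit of log2(Hoxb13 + 1) (middle) and of log2(Dbp + 1) (right) with diet in the model. Diamonds mark an adjusted p under 0.05, which Muc2, Tff3 and Spdef reach in the middle panel only.

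Hoxb13 was then put into the model beside diet, which asks how each gene changed with Hoxb13 among libraries of the same diet. Muc2 and Spdef fell and Tff3 rose with Hoxb13. The slope, in log2(FPKM + 1) per unit of log2(Hoxb13 + 1), was -0.34 for Muc2 (SE 0.06, limma adjusted p = 0.00733). The slope was -0.25 for Spdef (SE 0.07, adjusted p = 0.0475) and 0.13 for Tff3 (SE 0.03, adjusted p = 0.00673). That is 3 of 10 members, where 15.8% of all 12344 tested genes were called, 7.85% rising with Hoxb13 and 7.96% falling. Clca1, Agr2 and Atoh1 did not pass, with slopes of 0.14, -0.11 and -0.09 and adjusted p values of 0.0838, 0.104 and 0.0874. At an unadjusted p under 0.05 there were 6 of 10 members, where 14.6% of all tested genes rose and 15.1% fell at that level. Fcgbp, Zg16, Spink4 and Muc13 had slopes of 0.04, 0.03, -0.01 and 0.01. PI-2 and PI-5 supply nearly all of the range in Hoxb13. The calls of Muc2 and Tff3 held without any 1 library, but ended when the mean level of epithelial genes was added to the model (adjusted p = 0.0636 and 0.0563). That mean was itself highest in PI-2 and PI-5, the libraries lowest in Hoxb13, so this fit cannot fully separate it from Hoxb13. The list holds Cdx2, at 123 and 118 FPKM in PI-2 and PI-5 against 12.7 to 53.3 FPKM in the other 8 libraries. Cdh1, also in the list, was lower in PI-2 and PI-5, at 233 and 254 FPKM against 313 to 359 FPKM. Of the 15 epithelial genes, 1 rose and 2 fell with Hoxb13, and a mean without Cdx2 was not tested. The Spdef call ended without any 1 of 8 libraries (PI-1 to PI-5, CN-1, CN-2 or CN-5; adjusted p 0.055 to 0.141, slopes -0.21 to -0.47), and also with no filter on low values (adjusted p = 0.0782), median-ratio scaling (0.0526) or no mean trend (0.0532). The slope of Clca1 rested on PI-2: it was -0.09 without PI-2 (adjusted p = 0.344), and passed at 0.17 without PI-5 (adjusted p = 0.00725).

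**Figure D4:**
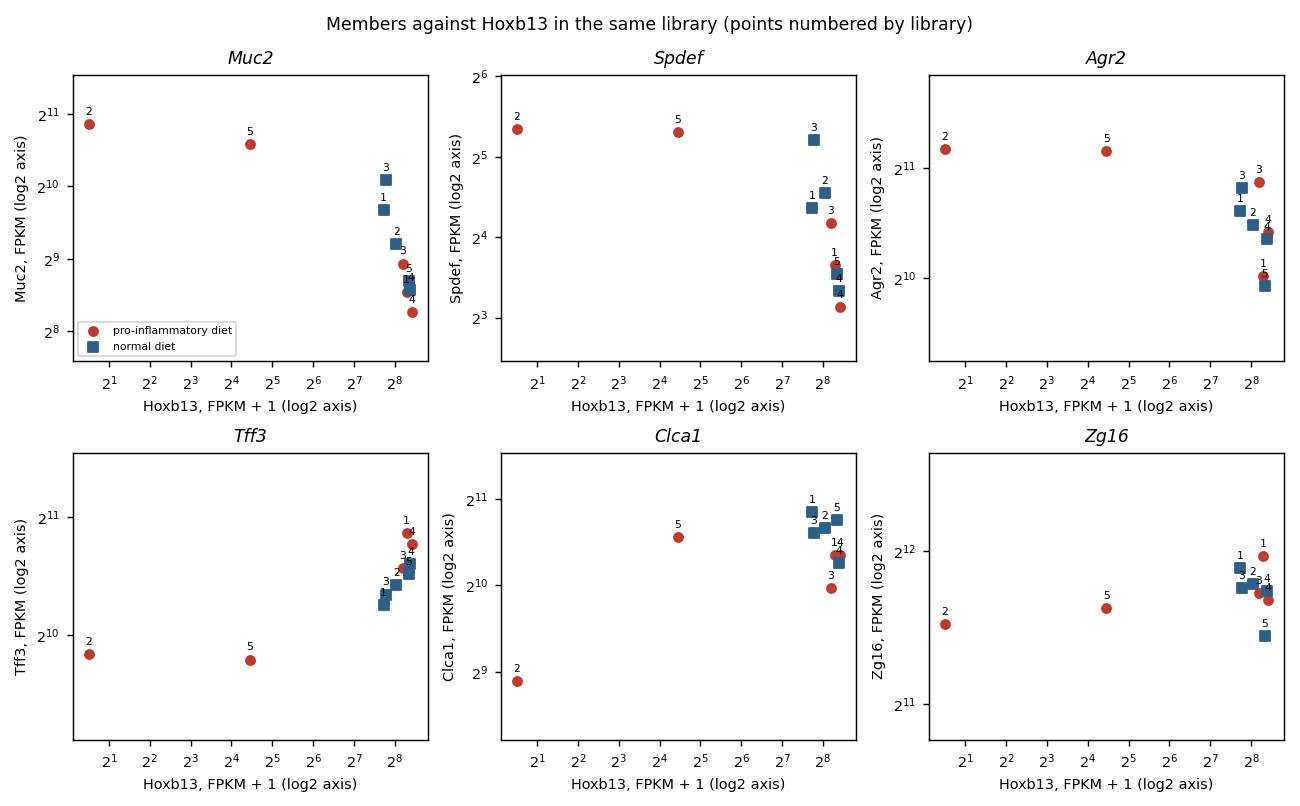
Each panel plots 1 gene's FPKM (y axis, log2) against Hoxb13 FPKM + 1 in the same library (x axis, log2); red circles are the pro-inflammatory diet libraries, blue squares the normal diet libraries, and numbers name the library. Muc2 and Spdef rise to the left in PI-2 and PI-5 and also climb steeply within the 8 libraries at the right, while Tff3 runs the other way and Zg16 stays level.

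Muc2 also fell with Hoxb13 within the 8 libraries in which Hoxb13 was high. These 8 were set apart by their own Hoxb13 values and belong to the 10 libraries above. Results within them are therefore not an independent check of the slope above. The slope of Muc2 in limma was steeper within the 8 libraries, at -2.06 against -0.335 over all 10 libraries. From the lowest Hoxb13 to the highest, CN-1, CN-3, CN-2, PI-3, PI-1, CN-5, CN-4 and PI-4, Muc2 was at 813, 1084, 590, 489, 373, 415, 381 and 307 FPKM. The correlations below pooled both diets with no diet term, and the 3 libraries lowest in Hoxb13 were all on the normal diet. Their permutations treated all 8 libraries as exchangeable, which this difference in diet may not allow. Over these 8 libraries Pearson's r between log2(FPKM + 1) of Muc2 and Hoxb13 was -0.962 (two-sided exact permutation p = 0.000471, adjusted p = 0.00471 over the 10 members) and Spearman's rho was -0.905 (exact permutation p = 0.00456, adjusted p = 0.0228). Leaving out CN-1 and CN-3, the libraries farthest from the median of Hoxb13, r was -0.939 over 6 libraries. For Spdef r was -0.884 (exact permutation p = 0.0027, adjusted p = 0.0135), rho was -0.929 (exact permutation p = 0.00223, adjusted p = 0.0223), and r without the same libraries was -0.989. Spink4 also fell (r = -0.821, exact permutation p = 0.0129, adjusted p = 0.0322; rho = -0.833, exact permutation p = 0.0154, adjusted p = 0.0513), with r at -0.773 without these libraries. Tff3 rose with Hoxb13 (r = 0.837, exact permutation p = 0.011, adjusted p = 0.0322; rho = 0.810, exact permutation p = 0.0218, adjusted p = 0.0544), with r at 0.587 without them. The other 6 members gave adjusted p values from 0.104 to 0.348 for r. In the limma model over the same 8 libraries, which held diet, only Muc2 was called, 1 of 10 members (slope -2.06, SE 0.24, adjusted p = 0.0373). Of all tested genes 0.113% were called in that model, 0.0324% rising with Hoxb13 and 0.081% falling. Spdef had a slope of -2.19 there without passing (SE 0.47, adjusted p = 0.115), and Tff3 a slope of 0.47 (SE 0.14, adjusted p = 0.257). The 3 libraries of these 8 with the lowest Hoxb13, CN-1, CN-2 and CN-3, were also the 3 with the lowest Dbp, so within these libraries Hoxb13 and Dbp cannot be told apart.

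With Dbp in the model in place of Hoxb13, 0 of 10 members passed in limma, 5 of 10 had an unadjusted p under 0.05 (1 higher and 4 lower, where 3.76% of all tested genes were higher and 4.71% lower), and voom also called 0. Over all genes 0.0162% were called. The slopes per unit of log2(Dbp + 1) were -0.46 for Muc2, -0.42 for Spdef, -0.24 for Spink4, -0.21 for Agr2 and 0.09 for Muc13, with adjusted p values of 0.541 to 0.587. CN-1, CN-2 and CN-3, at 1.79 to 6.69 FPKM of Dbp, had Spink4 at 714 to 778 FPKM, against 347 and 458 FPKM in CN-4 and CN-5. The pro-inflammatory diet libraries showed no such order. Spink4 was at 437 FPKM in PI-2 and 884 FPKM in PI-5, with Dbp at 12.4 and 20.2 FPKM. PI-1, PI-3 and PI-4, at 33.5 to 54.3 FPKM of Dbp, had Spink4 at 407 to 712 FPKM. Without CN-1, CN-2 and CN-3, when PI-2 and PI-5 were lowest in Dbp as in Hoxb13, 8.33% of genes were called, with 4 of 10 members: Muc2 (slope -1.37, adjusted p = 0.0204), Tff3 (0.59, 0.0248), Agr2 (-0.57, 0.0358) and Spdef (-1.01, 0.0426). With Hoxb13 and Dbp both in the model, the Hoxb13 calls of Muc2 and Tff3 held and that of Spdef ended (slope -0.18, adjusted p = 0.152).

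Markers of other cell types were read in the same libraries. The 15 epithelial genes summed to 8431 to 9944 FPKM on the pro-inflammatory diet and 7256 to 9405 FPKM on the normal diet, and 10 smooth muscle genes to 2370 to 3244 FPKM against 2716 to 4032 FPKM. For diet, 0 of 10 smooth muscle and 0 of 6 fibroblast genes had a log2 fold change above 0, and 0 passed. Their medians were -0.33 and -0.27, against -0.01 over all tested genes. Of the 15 epithelial genes, 11 were above 0 and 4 below. In PI-2 and PI-5 the epithelial sum was 8819 and 9254 FPKM, inside the range of the other 8 libraries. The mean log2 level of the epithelial list was highest there, at 8.561 and 8.6, against 8.233 to 8.494 elsewhere. For Hoxb13, 0 of 10 smooth muscle genes passed. With the mean log2 level of the epithelial list, which holds Cdx2, in the model, the Hoxb13 slopes were -0.26 for Muc2, 0.10 for Tff3 and -0.14 for Spdef, and 0 of 10 members passed (adjusted p = 0.280 for Spdef). Cdx2, a homeobox factor of intestinal epithelium, was at 16.5, 123, 33.2, 12.7 and 118 FPKM in PI-1 to PI-5, against 48.6, 35.6, 53.3, 14.8 and 18.5 FPKM in CN-1 to CN-5. The order is close to that of Muc2, and Cdx2 was singled out after its values were seen. Genes of absorptive colonocytes moved in both directions with Hoxb13: of 12, 7 rose and 3 fell (7.85% and 7.96% of all tested genes did). The chloride exchanger Slc26a3, which rose, was at 59.5 and 146 FPKM in PI-2 and PI-5 against 204 to 510.5 FPKM in the other 8 libraries. Car1, which fell, was at 3568 and 2334 FPKM against 165 to 845 FPKM, and Mall, which also fell, at 158 and 146 FPKM against 59.0 to 81.7 FPKM. Car1 had the smallest diet p of the 12 (log2 fold change 1.88, limma adjusted p = 0.182). Of the 5 markers of deep crypt secretory cells, which include Agr2 and Spink4, 1 rose and 2 fell with Hoxb13 (median slope -0.11). Reg4, which rose, was at 28.4 and 31.5 FPKM in PI-2 and PI-5 against 214 to 393 FPKM elsewhere. Cd44 fell, with 21.1 and 17.1 FPKM in PI-2 and PI-5 against 6.46 to 10.545 FPKM elsewhere (slope -0.19, adjusted p = 0.00185), and so did Kit, with 29.1 and 28.6 FPKM against 11.3 to 24.4 FPKM (slope -0.14, adjusted p = 0.0372). The 4 T cell genes summed to 5.01 to 20.1 FPKM on the pro-inflammatory diet and 3.26 to 7.10 FPKM on the normal diet, highest in PI-2 and PI-5. The 5 macrophage genes summed to 52.3 to 121 FPKM against 65.7 to 88.1 FPKM, and the 5 adipocyte genes to 30.4 to 174 FPKM against 24.6 to 61.2 FPKM, both highest in PI-2. The part of these cell types in the results was not tested beyond the epithelial covariate.

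A wider set of 38 goblet cell genes, 36 of them in the table and 34 tested, was read beside the 10. For diet, 0 of 34 passed in limma (15 above 0, 19 below; median log2 fold change -0.04). The smallest unadjusted p values were those of Mlph (a melanophilin of granule transport), Nlrp6 (a sensor linked to mucus release), the transcription factor Klf4 and Oit1, with log2 fold changes of -0.19, 0.26, -0.20 and -0.26 and adjusted p values of 0.281 to 0.368. Retnlb, a goblet cell protein induced by bacteria and worm infection, varied widely. Retnlb was at 4.29, 389, 13.2, 39.2 and 693 FPKM in PI-1 to PI-5, against 76.1, 50.5, 53.2, 3.10 and 48.2 FPKM in CN-1 to CN-5.

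Against Hoxb13, 17 of these 34 genes passed, 9 rising and 8 falling, beside 15.8% of all tested genes, with a median slope of -0.04. The goblet cell genes therefore split. Best2, an anion channel of colonic goblet cells, rose with Hoxb13 and was at 35.1, 1.41, 25.3, 36.3 and 4.08 FPKM in PI-1 to PI-5, against 23.9 to 32.8 FPKM on the normal diet (slope 0.51, adjusted p = 6.8e-05). Foxa2 (slope 0.21), a forkhead factor, Pla2g10 (0.14), a secreted phospholipase, and Atp2c2 (0.10), a Golgi calcium pump, also rose. Gcnt3, which branches mucin O-glycans, fell with Hoxb13 and was at 96.7 and 92.8 FPKM in PI-2 and PI-5 against 17.4 to 31.3 FPKM in the other libraries (slope -0.32, adjusted p = 0.00265). Galnt12 (slope -0.17), which starts O-glycan chains, B3gnt6 (-0.53), which builds core 3 glycans, and Retnlb (-0.73) fell too. Foxa1, Hepacam2, Bcas1 and Klk1 had slopes between -0.03 and 0.00 and did not pass. The genes named in this paragraph were chosen after their slopes were seen.

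**Figure D5:**
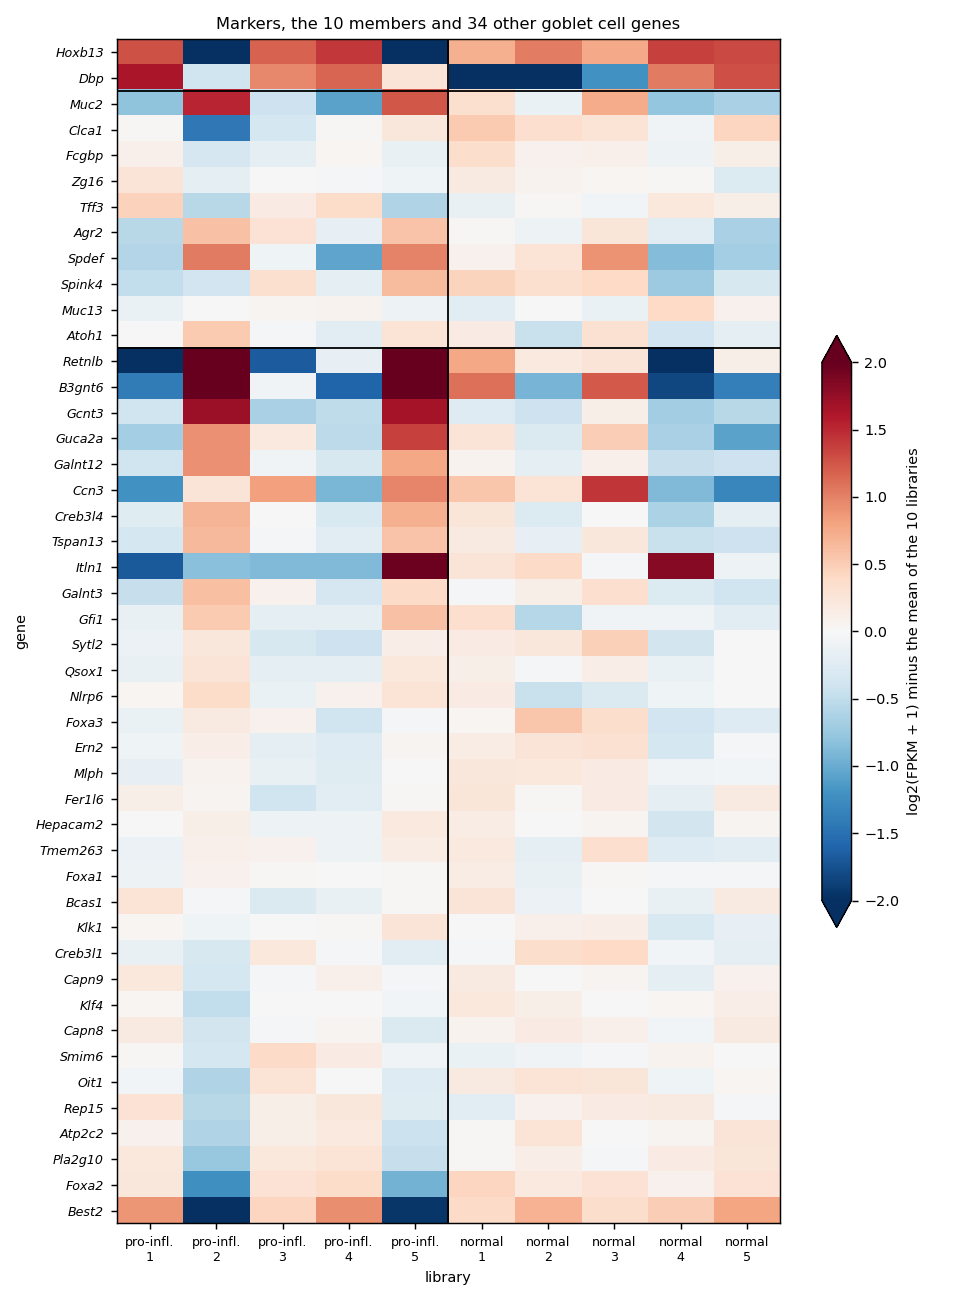
Rows are Hoxb13 and Dbp, the 10 genes, and 34 other goblet cell genes ordered by their Hoxb13 slope from negative to positive; columns are the libraries, pro-inflammatory diet left and normal diet right. Colour is log2(FPKM + 1) minus the gene's mean over the 10 libraries, cut off at -2 and 2. PI-2 and PI-5 are red for most upper rows of the lowest block (PI-2 is blue for Itln1) and blue for its bottom rows, and most of its middle rows are pale in all libraries.

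Relatives of the mucins differed in the same way. The gel-forming mucins Muc5ac, Muc5b and Muc6 of stomach and airway were at or near 0, with at most 0.0511 FPKM, for Muc6, in any library. Among membrane mucins, Muc3 was at 811, 469, 886, 972 and 584 FPKM in PI-1 to PI-5, against 598, 809, 731, 1078 and 888 FPKM in CN-1 to CN-5, and rose with Hoxb13 (slope 0.13, adjusted p = 0.0143). Muc3a was at 26.0, 89.5, 30.2, 23.5 and 88.6 FPKM in PI-1 to PI-5, against 28.6 to 48.4 FPKM on the normal diet, and fell (slope -0.25, adjusted p = 0.00392). Muc1 rose (slope 0.21, adjusted p = 0.00819) and Muc4 fell (slope -0.20, adjusted p = 0.0229), while Muc15, Muc16 and Muc20 stayed under 1 FPKM. None of the 4 tested membrane mucins passed for diet. Muc3 and Muc3a are related genes that can share reads, so how fragments were divided between them is uncertain.

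Of the Clca relatives, 0 of 5 passed for diet in limma. Clca3a2 had the smallest p, at 3.07, 2.72, 2.86, 2.45 and 2.06 FPKM in PI-1 to PI-5, against 6.03, 3.94, 4.06, 4.52 and 3.81 FPKM in CN-1 to CN-5. These groups did not overlap, but the gene did not pass (log2 fold change -0.59, adjusted p = 0.151), and close paralogues can share its reads. Clca3b, Clca4a, Clca4b and Clca3a1 had log2 fold changes of 0.11, 0.13, 0.66 and -0.05. Clca4b was at 26.3 and 19.6 FPKM in PI-2 and PI-5 and at 25.4 FPKM in CN-4, against 0.746 to 2.10 FPKM in the other 7 libraries.

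Enzymes and channels that act on released mucus were also read. For diet, 0 of 8 passed. Mep1a, a meprin protease of the brush border, was at 115, 144, 122, 129 and 155 FPKM in PI-1 to PI-5, against 101, 100, 99.2, 112 and 117 FPKM in CN-1 to CN-5 (log2 fold change 0.32, adjusted p = 0.173). Mep1b, its partner subunit, whose protease detaches mucus in mouse small intestine, and the chloride channel Cftr had log2 fold changes of 0.45 and -0.26. Tgm3, a transglutaminase that crosslinks Muc2 in mouse colon, was at 823, 1.29, 656, 859 and 64.1 FPKM in PI-1 to PI-5, against 415 to 739 FPKM on the normal diet (Hoxb13 slope 1.06, adjusted p = 5.8e-08). Where Muc2 was highest, Tgm3 was lowest; Tgm3 was singled out after its values were seen. Among genes of secretory fate and Notch signalling, 0 of 13 passed for diet. Sox9, a progenitor factor, had the smallest p, at 12.0 to 18.3 FPKM on the pro-inflammatory diet and 16.2 to 30.3 FPKM on the normal diet (log2 fold change -0.51, adjusted p = 0.185). Klf4, Jag1 and Notch2 had log2 fold changes of -0.20, -0.17 and -0.15, and Hes1, a Notch target that represses Atoh1, was at 19.2 to 44.9 FPKM against 27.0 to 40.5 FPKM.

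The genes outside the 10 whose pattern was most like that of Muc2 over the 10 libraries, by Pearson's r of log2(FPKM + 1), were Itga2 (0.993), Pgm2 (0.986), Sidt1 (0.986), Ptprn2 (0.986), Gpat3 (0.983) and St3gal1 (0.982). Within the 8 libraries with high Hoxb13 their r was 0.985, 0.983, 0.985, 0.977, 0.969 and 0.989. Itga2, a collagen-binding integrin subunit, was at 4.17, 20.8, 6.26, 4.02 and 19.5 FPKM in PI-1 to PI-5, against 9.55, 7.41, 11.9, 4.12 and 4.56 FPKM in CN-1 to CN-5. The order of its levels was close to that of Muc2. The mean of all 10 genes was followed most closely by Tspan6 (0.972), Trpc1 (0.954), B3galt2 (0.951), Etv5 (0.940), C1galt1 (0.938), which makes core 1 O-glycans, and Stc2 (0.932). Clca1 was instead most like Pard3b (0.949) and the smooth muscle gene Tagln (0.926). These likenesses describe 10 libraries that share their separation of PI-2 and PI-5, and were picked as the closest of all tested genes. Among the members themselves, within the 8 libraries with high Hoxb13, r was 0.94 between Muc2 and Spdef, 0.90 between Clca1 and Fcgbp, 0.24 between Muc2 and Zg16 and -0.86 between Muc2 and Tff3, again as a description.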

How the data were processed

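The authors deposited 1 FPKM value per gene symbol and sample for colon RNA (stranded mRNA libraries, paired reads, per the labels' protocols). The submitters' processing notes name mm10 and, without roles, StringTie, Cufflinks, HTSeq, HISAT2, Bowtie2, Trimmomatic and DESeq. The strand setting and annotation used in counting are not given in the sources used here. FPKM divides by each library's total, so abundant genes lower all others slightly. The FPKM of each gene were whole multiples of 1 read within 0.001 read for 18398 of 18398 genes, which gave reads per gene and library; the recovery was checked on made-up counts. Tests used log2(FPKM + 1) of genes averaging 1 FPKM or more, in limma 3.58.1 under R 4.3.3 (eBayes, mean trend, Benjamini-Hochberg over all tested genes, threshold 0.05). The fits were diet alone, and diet with log2(FPKM + 1) of Hoxb13 or Dbp. The diet and Hoxb13 fits were tested on simulated data, where a 2-fold diet change was called in 89.6% of changed genes. A simulated Hoxb13 slope of 0.2 was called in 84%. The simulated errors were independent for each gene and library, unlike the separation of PI-2 and PI-5 that many genes share. The simulation therefore does not show how the fits behave under such shared variation. The members and gene lists were chosen with earlier results of these data known. Named genes were the members, up to 4 genes with the smallest diet p per list, and the mucin and Clca relatives. The genes most like Muc2, the members' mean and Clca1 were named as well. Exceptions are stated where they occur, apart from Epcam, Cdh1, Slc26a3, Retnlb and Hes1, which were named outside these rules. Coordinates are from GENCODE M21 (GRCm38). Alternatives changed the pseudocount, filter, scaling, variance model, weights, covariates and libraries, and added a replicate block; voom on whole reads was chosen after seeing the data. Same-numbered libraries of the diets were not paired by any label.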

Additional observations from a re-analysis of the deposited data

Results flagged for a closer look

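No single gene of the 10 had a library far from the others of its diet by Dixon's test at 95%. Over 90 groups of 5 libraries (the 10 genes, Hoxb13, Dbp, ratios, sums and marker lists), 6 had 1 such library, and chance gives about 1 in 20. The summed FPKM of the 10 genes was 11717 in PI-5, against 10117 to 10514 in the other pro-inflammatory diet libraries. Muc2 per Clca1 was 3.91 in PI-2, against 0.234 to 1.02 in the other libraries of that diet. The summed Clca relatives were at 141 FPKM in CN-5, against 196 to 217 in the other normal diet libraries. The Paneth cell list summed to 34.3 FPKM in PI-5 (8.36 to 13.8 in the other libraries of its diet) and to 246 FPKM in CN-4 (10.6 to 14.1 in the others of its diet). The macrophage list summed to 88.1 FPKM in CN-5, against 65.7 to 71.8 in the other normal diet libraries.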

How the results depend on the processing

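No alternative gave a diet call among the 10 genes or over all genes, where 0 were called throughout. The direction of small diet differences depended on the setting, and the cause was not tested. With array weights the log2 fold changes were -0.52 for Muc2, 0.024 for Zg16, 0.19 for Tff3, -0.49 for Spdef and 0.025 for Muc13. Without PI-2 and PI-5 they were -0.67, 0.067, 0.30 and -0.52 for Muc2, Zg16, Tff3 and Spdef. Without CN-1, CN-2 and CN-3 they were 0.11 for Zg16 and 0.49 for Spink4. With Hoxb13 as covariate they were -0.50, 0.048, 0.21 and -0.39 for Muc2, Zg16, Tff3 and Spdef, with Dbp 0.026 for Zg16 and 0.29 for Spink4, and with both -0.043, 0.19, 0.092 and 0.52 for Muc2, Zg16, Tff3 and Spink4. With the epithelial covariate they were -0.43, 0.032, 0.19, -0.036 and -0.47 for Muc2, Zg16, Tff3, Agr2 and Spdef. Median-ratio scaling gave 0.00 for Zg16. Leaving out 1 library at a time gave -0.16 to 0.49 for Muc2, -0.12 to 0.40 for Spdef, -0.24 to 0.063 for Spink4, -0.19 to 0.081 for Tff3, -0.089 to 0.026 for Zg16 and -0.11 to 0.041 for Muc13.

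For the Hoxb13 slope, 1951 genes and 3 members were called. Array weights gave 3711 genes and 5 members, with Clca1 at -0.004. Without PI-2 and PI-5, 14 genes and 1 member (Muc2) were called, with Clca1 at -0.29, Fcgbp at -0.30 and Zg16 at -0.37. The Dbp covariate gave 1256 genes, with Spink4 at 0.069 and Muc13 at -0.017. Without the diet term 6 members were called, and with the epithelial covariate 906 genes and 0 members (Spink4 at 0.084). Quantile normalization gave -0.032 for Muc13, and leaving out CN-1, CN-2 and CN-3 gave 0.005 for Spink4. Leaving out 1 library at a time gave 1001 (without PI-4) to 2030 genes, 2 to 3 members, -0.094 to 0.17 for Clca1 and -0.24 to 0.024 for Spink4.

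For the Dbp slope, 2 genes and 0 members were called. There was 1 gene with a mean FPKM of at least 5 or with the epithelial covariate, 4 with array weights and 5 without the diet term. Without CN-1, CN-2 and CN-3, when PI-2 and PI-5 are lowest in both Dbp and Hoxb13, 1028 genes and 4 members were called (Muc2, Tff3, Agr2 and Spdef), with 0.21 for Fcgbp, 0.17 for Zg16 and -0.026 for Muc13. Clca1 was at -0.057 without PI-2 and PI-5, -0.091 with Hoxb13, -0.075 without diet and -0.028 with the epithelial covariate, and Zg16 at 0.072 with quantile normalization. Leaving out 1 library at a time gave 0 to 2 genes, 0 members, -0.072 to 0.12 for Clca1, -0.042 to 0.03 for Fcgbp and -0.054 to 0.022 for Zg16.

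No label pairs same-numbered libraries, and their deviations correlated at -0.263 to 0.061. Such correlations do not show whether these libraries shared a batch, which was not tested. With the replicate block 0 genes were called for diet; for Hoxb13, 563 genes and 1 member (Atoh1, slope -0.14, adjusted p = 0.0394) with Spink4 at 0.011, while Muc2, Tff3 and Spdef had adjusted p values of 0.0505, 0.0767 and 0.160; for Dbp, 0 genes with Clca1 at -0.11.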
